A study of Rattus norvegicus with 8 samples.

Results

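The organic ion and drug transporters of the rat kidney were taken as every gene whose symbol belongs to the Slc22a, Slco, Slc47a or Abcc families or is Abcb1a, Abcb1b or Abcg2. They were chosen by gene name alone and not by any measured value. The rule found 46 genes, represented by 54 of the 41012 probes on the array, out of 35237 genes or unnamed transcripts. Of these, 31 were counted by family name as uptake carriers (Slc22a and Slco), among them Slc22a17, a receptor for the iron-binding protein NGAL. By the same rule 13 were counted as efflux carriers (Slc47a, Abcc, Abcb1 and Abcg2). The remaining 2, Abcc8 and Abcc9, carry an Abcc name but are the sulfonylurea receptors of potassium channels.

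The proximal tubule clears drugs, toxins and metabolic wastes from the blood in 2 steps. Carriers on the blood side of the cell take them up, Slc22a6 and Slc22a8 for organic anions and Slc22a2 for organic cations, and carriers on the urine side export them, among them Slc47a1 for cations and Abcc2, Abcc4 and Abcg2 for anions and conjugates. Other members run the opposite way and recover solutes from the urine, such as Slc22a12 for urate and Slc22a5 for carnitine. When 1 kidney is lost, the other has to carry this secretion alone.

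The right kidneys came from 4 nephrectomized and 4 sham-operated female F344/NSlc rats, an inbred strain, aged 10 weeks. The nephrectomy was unilateral, so the kidney measured was the one that remained, and the sham rats also had surgery. The design text gives 2 days after surgery for sampling, but by the source names the nephrectomized kidneys were from day 2 and the sham ones from day 1. If the source names hold, day and operation cannot be told apart. The tissue was whole kidney, so that fewer cells of a type and less RNA per cell cannot be told apart in any value below.

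Each RNA had its own 1-colour Agilent array. The share of probes well above background was 59.5% to 66.1% per array, and none was saturated. The arrays lay on 2 slides, each with 2 nephrectomized and 2 sham arrays, and the nephrectomized arrays took positions 3 and 4 of both slides and the sham arrays positions 1 and 2, so position and group cannot be told apart. Lrp2, Cubn, Slc34a1 and Aqp1, which mark the proximal tubule, and Umod, which marks the thick ascending limb, were well above background on all 8 arrays. Of 5 genes abundant in liver, Alb, Ttr and Serpina1 were above it on 1, 0 and 0 of the 8, and Apoa1 and Fgb on 7 and 8. Values are given as log2 of the processed signal relative to the array's 75th percentile, and differences as nephrectomized minus sham on that scale. The values of different probes are not comparable with each other.

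None of the 33 transporter genes that could be tested passed the threshold in either direction. With limma over all 20950 tested features, 0 of the 33 passed a Benjamini-Hochberg adjusted p of 0.05, where 1.04% of all features did (0.749% higher and 0.286% lower). At an unadjusted p under 0.05 there were 6 of 33, or 18.2%, against 16.0% of all features, so the share among the transporters lay near the background. They were 3 with a higher average, where 9.75% of all features were, and 3 with a lower one, where 6.30% were. The groups did not overlap for 2 of 33 genes (6.06%), against 11.1% of all features. The differences ran between -0.31 for Slco2b1 and 0.39 for Slco4a1, with a median of -0.03 beside 0.01 over all features. That median was 0.02 without nephrectomized replicate 4, -0.10 without sham replicate 3, 0.05 on slide 1 alone and -0.10 on slide 2 alone. For 28 of the 33 the 95% interval lay within -1 to 1, and for 21 it lay within -0.5 to 0.5. No member passed under any of 21 other ways of processing the data, where the lowest limma adjusted p was 0.0765 (Abcb1b with normexp background correction). Some of these ways could call little: over all features 0 passed on slide 1 or slide 2 alone and 10 with a block for replicate number.

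**Figure D1:**
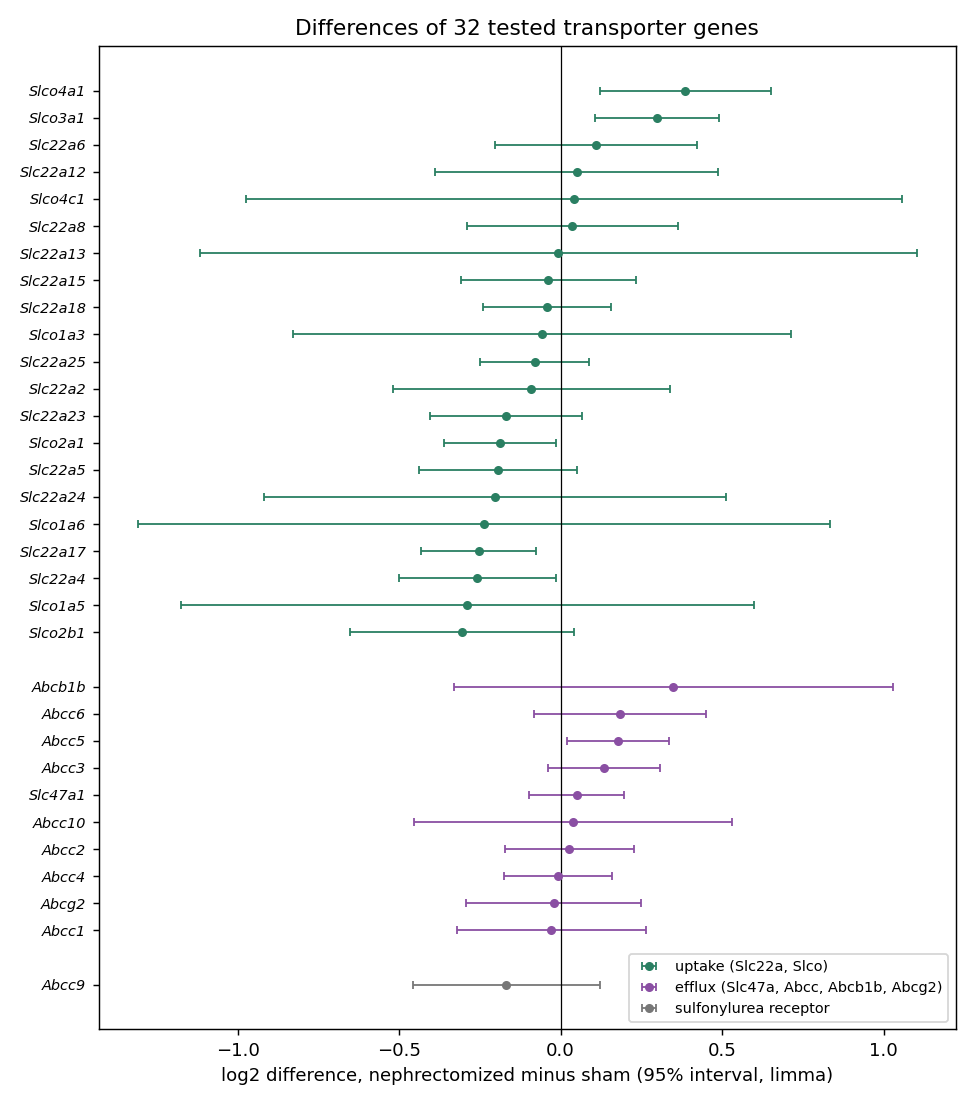
Log2 difference, nephrectomized minus sham, of 32 of the 33 tested transporter genes, with limma's 95% interval (n = 4 arrays per group) along the horizontal axis. The uptake genes are at the top, the efflux genes below them and Abcc9 at the bottom; the points lie between -0.31 and 0.39, and the intervals of Slco1a5, Slco1a6, Slco4c1, Slc22a13 and Abcb1b reach past -1 or 1.

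Organic anion carriers of the Slc22a family come first in secretion. Slc22a6, the basolateral exchanger of anions such as para-aminohippurate, read 3.29, 3.26, 3.71 and 3.76 in nephrectomized kidneys, against 3.38, 3.52, 3.19 and 3.48 in sham kidneys. Slc22a8, the related basolateral carrier of anions and many drugs, read 2.98, 2.88, 3.26 and 3.36 in nephrectomized kidneys, against 3.33, 2.95, 2.85 and 3.21 in sham kidneys. The groups overlapped for both genes, and on slide 2 the nephrectomized arrays were the higher ones while on slide 1 they were not. The difference was 0.11 (95% interval -0.20 to 0.42) for Slc22a6 and 0.04 (95% interval -0.29 to 0.36) for Slc22a8, with limma adjusted p of 0.745 and 0.933. Within slide 1 the differences were -0.18 and -0.21, and within slide 2 they were 0.40 and 0.28, so the sign depended on the slide.

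Slc22a12, the apical urate exchanger, read 2.94, 2.78, 2.65 and 2.12 in nephrectomized kidneys, against 2.78, 2.55, 2.22 and 2.75 in sham kidneys. Its lowest value in each group came from nephrectomized replicate 4 and sham replicate 3, and the groups overlapped. Its difference was 0.05 (95% interval -0.39 to 0.49), with a limma adjusted p of 0.931. Slc22a25, another member of the anion branch, had a difference of -0.08 (95% interval -0.25 to 0.09). The remaining tested members of this branch, Slc22a13 and Slc22a24, are among the genes of wide spread described further on. In all, 3 of the 6 tested anion carriers had positive and 3 had negative differences, with none called. Slc22a7, a basolateral anion carrier, had no matched probe and was not analysed here.

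Slc22a2, a basolateral organic cation carrier of the proximal tubule, read 1.05, 1.31, 1.43 and 1.52 in nephrectomized kidneys, against 1.09, 1.91, 1.16 and 1.51 in sham kidneys. The groups overlapped, and the 4 sham values spread over more than the nephrectomized ones. The difference was -0.09 (95% interval -0.52 to 0.34), with a limma adjusted p of 0.860. It was -0.32 within slide 1 and 0.14 within slide 2.

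Both tested carriers of carnitine and related zwitterions had lower averages in nephrectomized kidneys, without a call. Slc22a4, which takes up ergothioneine, read -0.75, -0.63, -0.51 and -0.90 in nephrectomized kidneys, against -0.62, -0.33, -0.52 and -0.29 in sham kidneys. Slc22a5, which recovers carnitine from the urine, read 1.05, 0.64, 0.98 and 1.09 in nephrectomized kidneys, against 1.28, 1.05, 1.13 and 1.08 in sham kidneys. For both genes the nephrectomized arrays tended to the lower side, but 1 or more of them lay among the sham values. The difference of Slc22a4 was -0.26 (95% interval -0.50 to -0.01), with a limma adjusted p of 0.286, and that of Slc22a5 was -0.19 (95% interval -0.44 to 0.05), with 0.421. With normexp the difference of Slc22a4 was -0.14. That of Slc22a5 was -0.09 without nephrectomized replicate 2, -0.32 on slide 1 and -0.07 on slide 2, and its second probe gave -0.15.

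Among the other Slc22a genes, Slc22a17, a receptor for the iron-binding protein NGAL, separated the groups. It read 3.46, 3.33, 3.51 and 3.48 in nephrectomized kidneys, against 3.88, 3.62, 3.61 and 3.68 in sham kidneys. Every nephrectomized value lay below every sham value, a pattern found in 4.07% of all tested features in this direction. Its difference of -0.25 (95% interval -0.43 to -0.08) did not pass over all features (limma adjusted p = 0.159, and between 0.0890 and 0.711 under the alternatives). It was -0.36 on slide 1 and -0.15 on slide 2. The others, Slc22a15, a carrier of zwitterions, Slc22a18, an imprinted member, and Slc22a23, had differences of -0.04, -0.04 and -0.17.

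The Slco family, the organic anion transporting polypeptides, carries bile salts, hormones and prostaglandins without sodium. Slco3a1, a prostaglandin and thyroid hormone carrier, had the smallest p of all the transporters and read 0.47, 0.49, 0.27 and 0.41 in nephrectomized kidneys, against 0.28, -0.03, 0.14 and 0.06 in sham kidneys. Slco4a1, a thyroid hormone carrier, read -3.15, -3.01, -3.002 and -2.93 in nephrectomized kidneys, against -3.34, -3.75, -3.24 and -3.30 in sham kidneys. The nephrectomized values of Slco4a1 all lay above the sham values, as they did in this direction for 7.06% of all features, while for Slco3a1 the highest sham value lay just above the lowest nephrectomized one. The difference was 0.30 (95% interval 0.11 to 0.49) for Slco3a1 and 0.39 (95% interval 0.12 to 0.65) for Slco4a1, in folds 1.23 and 1.31, with limma adjusted p of 0.131 and 0.151. With normexp background correction the difference of Slco3a1 was 0.16. Under the alternatives these p ran between 0.0849 and 0.651 for Slco3a1 and between 0.125 and 0.549 for Slco4a1. Within slide 1 the differences were 0.36 and 0.46, and within slide 2 they were 0.24 and 0.31. With slide as a block the adjusted p were 0.153 and 0.126.

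Slco2a1, the prostaglandin uptake carrier, read -1.99, -1.99, -1.91 and -1.92 in nephrectomized kidneys, against -1.60, -1.92, -1.72 and -1.81 in sham kidneys. The nephrectomized values were close together and 1 sham value lay among them. Its difference was -0.19 (95% interval -0.36 to -0.01), with a limma adjusted p of 0.276. Slco2b1, a broad carrier of steroid sulfates, had the most negative difference of the transporters, -0.31 (95% interval -0.65 to 0.04), and its dimmer second probe gave -0.16. Neither Slco2a1 nor Slco2b1 passed.

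On the efflux side, Slc47a1, the apical proton-coupled exporter of organic cations, read 3.18, 3.21, 3.28 and 3.16 in nephrectomized kidneys, against 3.07, 3.23, 3.08 and 3.25 in sham kidneys. These 8 values lay within a narrow band, and the SD within groups of Slc47a1 lay at the 15.9th percentile of all features. Its difference was 0.05 (95% interval -0.10 to 0.20), with a limma adjusted p of 0.759. Slc47a2, its paralogue, was well above background on 3 of 4 nephrectomized arrays and on 0 of 4 sham arrays, which kept it out of the test. Its values were -3.78, -3.66, -4.01 and -4.13 in nephrectomized kidneys, against -4.73, -4.61, -5.23 and -4.20 in sham kidneys, without overlap between the groups. Among the tested features, which leave Slc47a2 out, 7.06% had no overlap in this direction. Since no sham array measured it well above background, its sham signal is read as an upper limit. By the measured means it was 1.74-fold brighter in nephrectomized kidneys, for these arrays only. The nephrectomized array that was not well above background also gives only an upper limit, so this ratio is not a strict lower bound. The ratio also makes no allowance for the spread between kidneys, with which the true ratio could be smaller. Tested without a filter on dim probes, Slc47a2 did not pass (limma adjusted p = 0.249).

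Of the multidrug resistance proteins, Abcc2, the apical exporter of glutathione and glucuronide conjugates, read 0.75, 0.86, 0.88 and 0.95 in nephrectomized kidneys, against 1.01, 0.88, 0.63 and 0.82 in sham kidneys. Abcc4, the apical exporter of urate, cyclic nucleotides and anionic drugs, read -0.48, -0.46, -0.22 and -0.35 in nephrectomized kidneys, against -0.31, -0.46, -0.34 and -0.37 in sham kidneys. The groups overlapped for both, and both had differences close to 0, at 0.03 (95% interval -0.17 to 0.23) and -0.01 (95% interval -0.17 to 0.16). The second, dimmer probe of Abcc4 gave -0.20, also not past the threshold. Abcc5, an exporter of cyclic nucleotides, read 1.59, 1.74, 1.58 and 1.53 in nephrectomized kidneys, against 1.36, 1.43, 1.55 and 1.39 in sham kidneys. Its highest sham value lay just above its lowest nephrectomized one, and its difference was 0.18 (95% interval 0.02 to 0.34) (limma adjusted p = 0.260), with 0.27 on slide 1 and 0.08 on slide 2. Abcc1, which exports glutathione conjugates, had a difference of -0.03, Abcc3, a basolateral exporter of glucuronides, 0.13, Abcc6, which is needed for release of ATP from cells, 0.18, and Abcc10, a lipophilic drug exporter, 0.04.

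Abcg2, the breast cancer resistance protein, which exports urate and many drugs, read 2.66, 2.54, 2.93 and 2.80 in nephrectomized kidneys, against 2.84, 2.69, 2.51 and 2.96 in sham kidneys. The 2 ranges nearly coincide, and the difference was -0.02 (95% interval -0.29 to 0.25) (limma adjusted p = 0.953). Rodents split P-glycoprotein, the exporter of bulky hydrophobic drugs, over Abcb1a and Abcb1b. Abcb1b read -3.25, -2.84, -3.46 and -4.30 in nephrectomized kidneys, against -4.08, -3.61, -4.10 and -3.46 in sham kidneys. The highest and the lowest of the 8 values were both nephrectomized, and the difference was 0.35 (95% interval -0.33 to 1.03) (limma adjusted p = 0.612). Within slide 1 it was 0.80 and within slide 2 -0.10. Without nephrectomized replicate 4 it was 0.63 (adjusted p = 0.278), and without nephrectomized replicate 2 it was 0.14. Abcb1a was well above background on 1 nephrectomized and 2 sham arrays and was not tested. Abcc9, the regulatory subunit of vascular potassium channels, had a difference of -0.17 (95% interval -0.46 to 0.12).

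**Figure D2:**
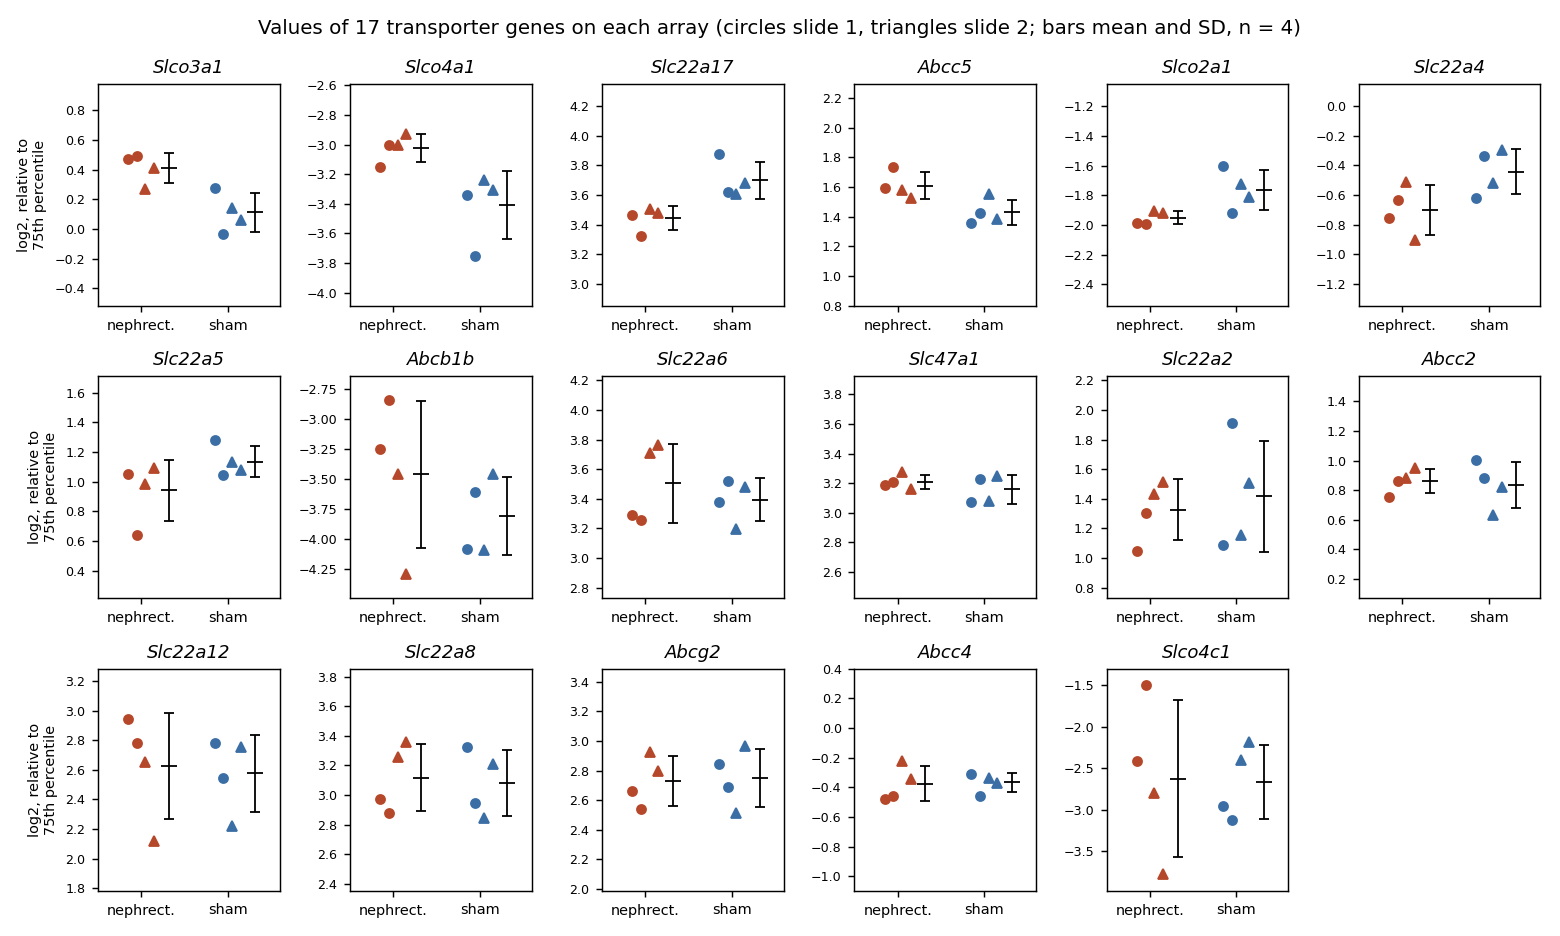
Log2 values, relative to the array's 75th percentile, of 17 transporter genes on the 4 nephrectomized (left of each panel) and 4 sham arrays (right), ordered by p. Circles are slide 1 and triangles slide 2, and the bars give the mean and SD; only Slco4a1 and Slc22a17 show no overlap between the groups.

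Uptake and efflux genes are given by their counts, with no test between them. Of 22 tested uptake genes 6 had positive and 16 negative differences, with a median of -0.09. Of 10 tested efflux genes 7 were positive and 3 negative, with a median of 0.04. Over all features 52.5% of the differences were positive. At an unadjusted p under 0.05 there were 5 uptake genes (22.7%) and 1 efflux gene (10%), against 16.0% of all features. The balance of the uptake genes moved with single arrays. Without nephrectomized replicate 4 there were 11 positive and 11 negative genes with a median of 0.0043, without sham replicate 4 there were 8 and 14 with -0.03, and without sham replicate 3 there were 4 and 18 with -0.18. On slide 1 alone there were 10 and 12 with a median of -0.06, and on slide 2 alone 7 and 15 with -0.14. The efflux median was positive under all 21 alternatives, between 0.03 and 0.14, but these reuse the same arrays and are not independent. The SD between arrays of a group, for the median taken per array, was 0.101 for the efflux and 0.117 for the uptake genes. Both SDs were larger than the medians themselves.

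**Figure D3:**
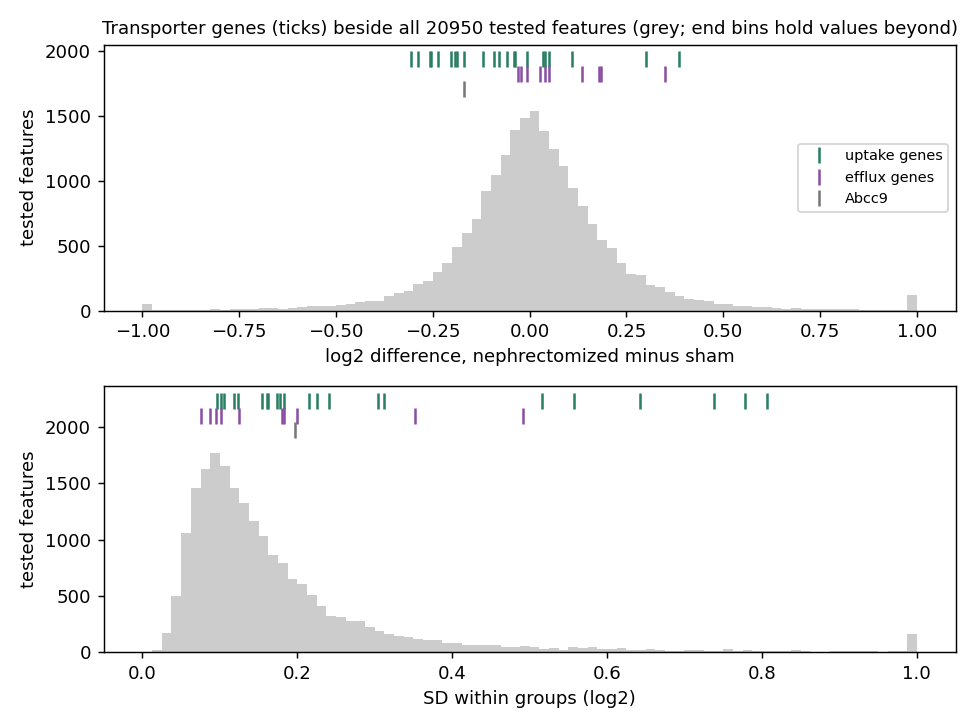
Distribution over all 20950 tested features (grey bars, counts) of the log2 difference, nephrectomized minus sham (top), and of the SD within groups (bottom), with each transporter gene as a tick. The differences of the transporters lie between -0.31 and 0.39, inside the bulk of all features, while 7 of the 33 lie beyond the 95th percentile of spread at 0.464.

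Spread between kidneys of the same group was at or above the median of all features for 23 of the 33 genes. The median SD within groups was 0.183 over the 33 genes and 0.132 over all features, and 7 of the 33 (21.2%) lay above the 95th percentile of all features. These are Slc22a13, an anion carrier of nicotinate and urate, Slc22a24, Slco1a3, Slco1a5 and Slco1a6 of the rodent Slco1a cluster, Slco4c1, a basolateral carrier of digoxin and thyroid hormone, and Abcb1b. Since they were chosen by their spread in these arrays, what follows describes them without a test. For the dim genes among them the spread depended on the background correction. With normexp the SE of the difference was 0.0862 for Abcb1b, against 0.298 in the fit reported, and 0.202 for Slco4c1, against 0.444. For the bright Slc22a24 it was 0.286, against 0.312. The percentiles of spread were not computed with normexp.

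Slc22a13 read -0.27, 0.35, -0.52 and -1.62 in nephrectomized kidneys, against -0.28, -1.11, -1.16 and 0.51 in sham kidneys, a span of 4.38-fold from the lowest to the highest array. Slco1a6 read -0.33, 0.18, -0.61 and -1.98 in nephrectomized kidneys, against -0.18, -0.70, -1.14 and 0.23 in sham kidneys. Slco1a5 read -0.65, -0.39, -0.80 and -2.03 in nephrectomized kidneys, against -0.61, -0.80, -1.31 and 0.01 in sham kidneys. In all 3 genes nephrectomized replicate 4 was the lowest of the 8 arrays and sham replicate 4 the highest. Slco1a3, the kidney carrier of methotrexate, read 3.73, 4.07, 3.66 and 2.59 in nephrectomized kidneys, against 3.47, 3.50, 3.11 and 4.20 in sham kidneys. Slc22a24 read 4.09, 4.36, 3.75 and 3.004 in nephrectomized kidneys, against 3.87, 4.11, 3.50 and 4.53 in sham kidneys. Slco4c1 read -2.42, -1.50, -2.80 and -3.78 in nephrectomized kidneys, against -2.96, -3.12, -2.40 and -2.19 in sham kidneys. Here too nephrectomized replicate 4 was the lowest, and in Slco4c1 the highest was nephrectomized replicate 2.

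Over the 7 genes, nephrectomized replicate 4 was the lowest of 8 in 7, sham replicate 4 was the highest sham array in 7 and sham replicate 3 the lowest sham array in 6. The nephrectomized arrays stood in the same order, replicates 2, 1, 3 and 4 from high to low, in all 7, an order found in 5.61% of all tested features and in 13.1% of the 1048 features of equally wide spread. Nephrectomized replicate 4 was the lowest of the 8 in 18.9% of those 1048 features and the highest in 13.5%. Among the 26 other transporters it was the lowest in 4. Of the same 1048 features, 30.0% had sham replicate 4 as the highest sham array. The 7 genes were not all independent measurements, since Slco1a3, Slco1a5 and Slco1a6 are close paralogues and neighbours on chromosome 4. Whether their probes also bind each other's transcripts was not tested.

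**Figure D4:**
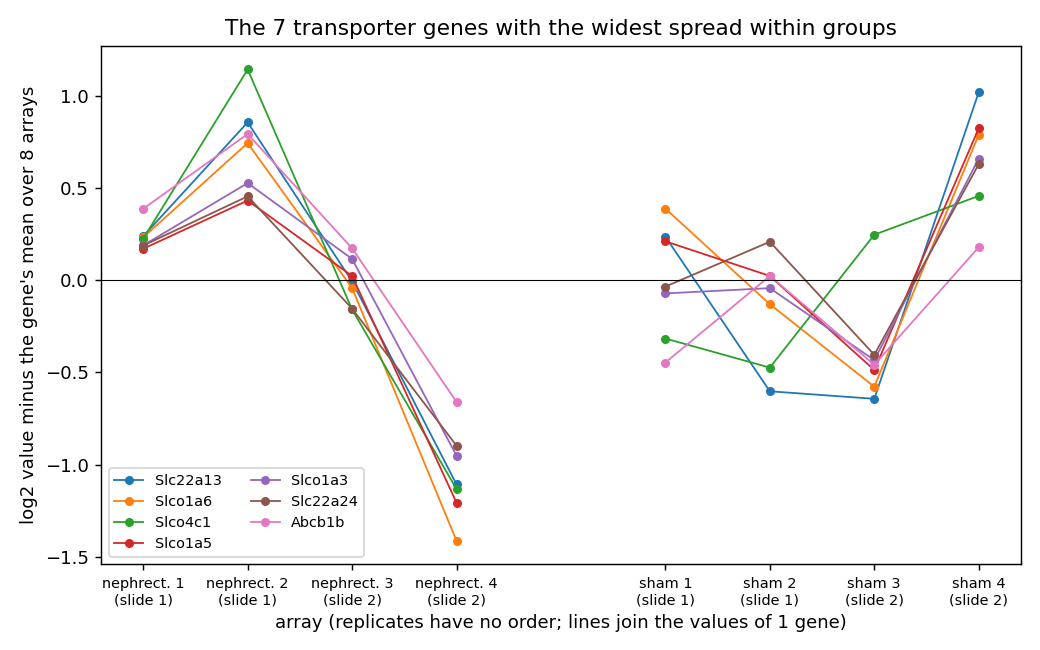
Log2 value of each of the 7 transporter genes of widest spread minus its mean over the 8 arrays, for nephrectomized replicates 1 to 4 and then sham replicates 1 to 4, with 1 colour per gene. All 7 genes are lowest in nephrectomized replicate 4 and, among sham kidneys, highest in sham replicate 4.

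The group differences of these genes moved with single arrays. Over all arrays the difference was -0.29 for Slco1a5, -0.24 for Slco1a6 and -0.20 for Slc22a24, and without nephrectomized replicate 4 it was 0.07, 0.19 and 0.06. For Slc22a13 it was -0.01 with all arrays, 0.36 without nephrectomized replicate 4 and 0.33 without sham replicate 4. For Slco1a3 it was -0.06, 0.25 and 0.15 under the same settings, and for Slco4c1 it was 0.04, 0.43 and 0.20. The lowest limma adjusted p of the 7 genes without either array was 0.278, for Abcb1b. Within the slides the difference of Slco4c1 was 1.08 on slide 1 and -0.999 on slide 2, and that of Slco1a6 was 0.36 and -0.84.

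By summed level, the thick limb and distal marker list followed this order among the nephrectomized arrays and the other 6 lists did not. The 4 tested thick limb and distal markers summed to 632, 647, 543 and 430 on nephrectomized replicates 1 to 4. They summed to 527, 552, 498 and 549 on sham replicates 1 to 4. The unit of these sums is the array's 75th percentile. The sum on nephrectomized replicate 4 was the lowest of the 8, but most of it came from Umod. Umod and Slc12a1 followed the order, while Slc12a3 and Calb1 did not, and Calb1 was highest on nephrectomized replicate 4. With equal weights, the mean log2 deviations were 0.18, 0.17, 0.04 and -0.05 on nephrectomized replicates 1 to 4. On sham replicates 1 to 4 they were 0.04, -0.09, -0.11 and -0.18, so by that mean neither the order nor the lowest array held. The summed level of 9 proximal tubule markers, in the same unit as the sums above, lay between 654 and 797 in nephrectomized and between 714 and 843 in sham kidneys. It was 654 on nephrectomized replicate 4, where the 7 genes were lowest, but 662 on nephrectomized replicate 2, where they were highest in their group. The 4 tested proliferation markers summed to 12.7 on nephrectomized replicate 4 and 8.38 on replicate 2, against 3.11 and 5.93 on replicates 1 and 3 and 1.23 to 1.84 in sham kidneys, and 3 of them were called higher. The 6 tested leukocyte markers summed to 3.47 to 3.88 in nephrectomized and 4.61 to 5.15 in sham kidneys, 3 of them called lower, and Itgam and Cd3e were above background on 0 and 1 of 8 arrays. Nephrectomized replicate 4 also had the largest share of probes above background, 66.1%, and the lowest 75th percentile signal, 388. The part of these values in the spread of the transporters was not tested.

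The promoters of genes that stood in the same order over the nephrectomized kidneys are shown so that their sequences can be compared. RefSeq's GRCr8 promoter table, 250 bases before to 50 after each gene's start, held 37 of the 46 transporters. Below are those of the 3 Slco1a neighbours and of Slc22a24, which had 3 motif matches, each on the minus strand and written from 5′ to 3′. Capitals mark the 3 short motifs searched on both strands, GTTAAT (from the HNF1 site), CAAAGT (from the HNF4 site) and AGGTCA (from nuclear receptor sites), with no overlap among the matches shown.
Slco1a3 (chr4:176749674-176749973): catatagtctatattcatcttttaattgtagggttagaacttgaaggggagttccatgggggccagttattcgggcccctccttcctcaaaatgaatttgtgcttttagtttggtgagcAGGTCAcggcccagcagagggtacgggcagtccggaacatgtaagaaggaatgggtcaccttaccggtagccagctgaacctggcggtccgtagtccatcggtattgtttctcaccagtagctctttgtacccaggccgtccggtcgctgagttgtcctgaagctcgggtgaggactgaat
Slco1a5 (chr4:176963763-176964062): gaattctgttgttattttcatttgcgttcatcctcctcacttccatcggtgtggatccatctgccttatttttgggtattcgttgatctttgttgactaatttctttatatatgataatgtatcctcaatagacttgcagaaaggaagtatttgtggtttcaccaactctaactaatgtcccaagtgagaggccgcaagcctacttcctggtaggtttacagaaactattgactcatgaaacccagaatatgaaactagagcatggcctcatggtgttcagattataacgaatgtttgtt
Slco1a6 (chr4:176838983-176839282): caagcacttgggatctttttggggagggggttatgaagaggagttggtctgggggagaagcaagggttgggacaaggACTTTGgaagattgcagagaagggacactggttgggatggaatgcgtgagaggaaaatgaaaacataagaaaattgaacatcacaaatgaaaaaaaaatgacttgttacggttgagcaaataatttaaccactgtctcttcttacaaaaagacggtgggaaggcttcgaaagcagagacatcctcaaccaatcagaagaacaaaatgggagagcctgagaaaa
Slc22a24 (chr1:214394632-214394931): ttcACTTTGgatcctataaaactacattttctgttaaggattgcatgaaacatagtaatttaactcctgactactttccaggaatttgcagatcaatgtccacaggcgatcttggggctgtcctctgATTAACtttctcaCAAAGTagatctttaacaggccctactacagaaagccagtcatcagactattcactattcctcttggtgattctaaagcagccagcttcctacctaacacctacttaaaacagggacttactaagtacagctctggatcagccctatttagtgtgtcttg

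No motif was shared by all 4 windows. GTTAAT lay in 1 of the 7 genes of wide spread, 5 of 37 transporters (13.5%) and 7.45% of all 33469 promoters. CAAAGT lay in 2 of the 7, 6 of 37 transporters (16.2%) and 14.8% of all promoters, and AGGTCA in 2 of the 7, 6 of 37 transporters (16.2%) and 16.2% of all promoters. Globally aligned, the 3 Slco1a promoters shared between 49% and 53.3% of their bases with each other, and between 50.3% and 51.7% with Slc22a24. These matches describe letters in a window and say nothing about binding.

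The other genes of renal organic ion handling were also without a call. The list of 61 symbols, which takes in dicarboxylate, urate, peptide and nucleoside carriers, scaffold proteins, transcription factors and conjugating enzymes, had 54 on the array and 51 tested. None passed over all features with limma, 5 had an unadjusted p under 0.05 (9.8%, against 16.0% of all features), 22 were positive and 29 negative, and the median was -0.03. Hnf4a, the nuclear receptor that maintains proximal tubule gene expression, read 4.15, 4.08, 4.23 and 4.17 in nephrectomized kidneys, against 4.39, 4.44, 4.38 and 4.39 in sham kidneys. Gstm1, a glutathione transferase, read 1.53, 1.58, 1.47 and 1.34 in nephrectomized kidneys, against 1.28, 0.81, 0.78 and 0.93 in sham kidneys. The groups of both genes did not overlap, as for 9.80% of the 51 genes and 11.1% of all features. The difference was -0.24 for Hnf4a and 0.53 for Gstm1, with limma adjusted p of 0.0742 and 0.0740. Gstp1, another glutathione transferase, was at 0.32, Slc2a9, a urate carrier, at 0.26, Slc13a1, a sulfate carrier, at -0.45 and Slc28a2, a nucleoside carrier, at -0.17. The order of the nephrectomized arrays seen in the transporters of wide spread was also present in 6 of these 51 genes (11.8%). It was found in 5.61% of all tested features and in 13.1% of the features of wide spread. In 5 of the 6, Gclc, Gclm, Ggt1, Slc15a2 and Slc5a12, nephrectomized replicate 4 was also the lowest of 8 and sham replicate 4 the highest sham array. These 5 are named here after their values were seen, and the share of all features with this joint pattern was not counted. Gclc, the catalytic subunit of the first enzyme of glutathione synthesis, read 2.19, 2.61, 1.70 and 0.11 in nephrectomized kidneys, against 1.80, 1.59, 0.70 and 2.62 in sham kidneys. Slc15a2, a peptide carrier of the tubule, read 1.70, 1.88, 1.29 and 0.63 in nephrectomized kidneys, against 1.52, 1.39, 0.90 and 2.04 in sham kidneys.

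The 13 transporters that were not tested were well above background on at most 3 of the 8 arrays. Slc22a3, Slc22a14, Slc22a22, Slco1a1, Slco1a4, Slco1b2, Slco6c1, Abcc8 and Abcc12 were so on 0 of 8 arrays. Slco1a1, a kidney and liver carrier, read -6.12, -5.93, -6.79 and -5.70 in nephrectomized kidneys, against -5.69, -6.71, -6.65 and -6.77 in sham kidneys, with overlapping groups. Slco1b2 is a carrier of the liver, Slco1a4 one of liver and brain vessels and Abcc8 the sulfonylurea receptor of pancreatic beta cells. Slco1c1, a thyroxine carrier of brain vessels, was above background on 1 array, Abcb1a and Slco5a1 on 3 each and Slc47a2 on the 3 nephrectomized arrays named above. A signal that is not well above background does not show that the gene is silent.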

How the data were processed

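Total RNA from 8 right kidneys was labelled with Cy3 and hybridised to 1-colour arrays, per the labels' protocols, and the headers name Agilent Feature Extraction 10.5.1.1 as the scanner software. Each array has its own deposited file, whose processed signal is an intensity with background and spatial trend removed and no scaling between arrays, per the file headers. The same files hold the median spot and background intensity, and flags of 0 or 1. The authors also deposited a table of log2 values. Its columns have medians between -0.0145 and 0.0154 and matched the scanner values, shifted to the 75th percentile and centred per probe, at a slope of 1.00 and a correlation over 0.99, so its scale, centring and direction are known.

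Control spots (1639 of 45018) and outlier spots were left out, spots of 1 probe were averaged as log2, and the 75th percentile was subtracted per array. Probes were named through RefSeq transcript accessions (GRCr8), which matched 18713 of 41012. A probe was tested if well above background on at least 4 arrays, and a gene was represented by its brightest tested probe (7 transporters had a second tested probe). The test was limma (version 3.58.1, R 4.3.3) without covariates, with Benjamini-Hochberg adjustment over 20950 features. The limma fit and its adjustment were tested on simulated feature values, and the steps before them were not. No label names an animal, so the p-values cover the spread among these kidneys, which may be partly technical. The number of arrays limits the precision.

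Values on every array are given for called members, the 6 smallest p and 15 members named regardless of outcome, of which Slco1a1 and Abcb1a were not tested and Slc22a7 had no probe; 1 further tested member is counted but not reported here. The members, lists, tests and alternatives were chosen with earlier results of these data known. Leaving out each array, 2 other normalizations, normexp on the median spot signal with an offset of 50, 2 filters, 2 probe rules, another variance model, the deposited table blocks for replicate and slide and each slide alone were the alternatives.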

Additional observations from a re-analysis of the deposited data

Results flagged for a closer look

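Slc22a18, an imprinted member of the Slc22a family, had 1 sham array far from the other 3. Sham replicate 3 was at 5.12, against 5.40 to 5.45 on the other sham arrays, and the gap made up 0.852 of the range of the group, above Dixon's 95% critical value for 4 samples. The nephrectomized arrays had no such gap. Of 66 groups of 4 values examined over the 33 tested genes this was the 1 that met that value, where chance gives about 1 in 20. The difference of Slc22a18 between the groups was -0.04, with a limma adjusted p of 0.862.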

How the results depend on the processing

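Over 21 alternatives 0 transporter genes were called in either direction, while the number of called features over the whole array, 217 in the fit reported, was 20 without a filter on dim probes, 394 with probes above background on all 8 arrays, 530 with trend and robust variance, 100 with slide as a block, 0 on slide 1 or slide 2 alone (1883 and 1745 at an unadjusted p under 0.05 with limma) and between 22 and 197 when 1 array was left out. The median of all features lay at most 0.04 from 0. Of the 17 named tested genes 8 kept their sign under every alternative, among them the 6 with the smallest p, and 9 did not, none of them called. On slide 1 only, Slc22a6 was at -0.18, Slc22a8 at -0.21 and Abcc2 at -0.14. On slide 2 only, Slc22a2 was at 0.14, Slc22a12 at -0.10, Slco4c1 at -0.999, Abcc4 at 0.0704, Abcb1b at -0.10 and Abcg2 at 0.13. Normexp gave -0.0621 for Slc22a8 and 0.0624 for Abcc4, and the mean of both probes gave -0.00678 for Slc22a12. With 1 array left out the ranges were -0.0450 to 0.117 for Slc22a8, -0.20 to 0.0737 for Slc22a2, -0.0690 to 0.217 for Slc22a12, -0.33 to 0.43 for Slco4c1, -0.0405 to 0.0833 for Abcc2, -0.0592 to 0.0266 for Abcc4, -0.10 to 0.0494 for Abcg2 and, without a change of sign, 0.0243 to 0.192 for Slc22a6, 0.143 to 0.628 for Abcb1b, -0.243 to -0.0933 for Slc22a5 and 0.0205 to 0.0805 for Slc47a1. The cause was not tested. The shared replicate numbers showed no visible pairing of the kidneys. The deviations of same-numbered arrays correlated at 0.14, 0.01, -0.06 and -0.21, and those of different-numbered arrays at between -0.21 and 0.24. These correlations cannot exclude a paired design. With the replicate block 10 features were called, 0 of them transporters. Abcc10 was tested with 4 of 8 arrays above background, and Abcb1a and Slc47a2 had too few for a test, so signal over background limits these genes.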

Other observations

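The 7 transporters with a second tested probe allowed a check within genes. The paired probes gave 0.13 and 0.15 for Abcc3, -0.04 and -0.03 for Slc22a15, -0.06 and -0.24 for Slco1a3 and -0.31 and -0.16 for Slco2b1, with the brighter probe first. For Slc22a12 they differed in sign, at 0.05 and -0.06, both well inside their SE. Among the untested genes close to background, Slco5a1 read -4.59, -4.70, -5.12 and -4.66 in nephrectomized kidneys, against -4.89, -4.49, -3.46 and -3.92 in sham kidneys, and Abcb1a read -4.72, -3.73, -4.40 and -4.65 in nephrectomized kidneys, against -3.86, -4.41, -4.60 and -3.55 in sham kidneys, with overlapping groups in both.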
